A study of Mus musculus with 9 samples.

Results

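The interferon-inducible p200 genes form a cluster on mouse chromosome 1 whose transcripts were measured here in primary CD4+ T cells carrying an NFAT2 vector or a control vector. The genes were chosen by symbol from a list of 9 (Ifi203, Ifi204, Ifi206, Ifi207, Ifi208, Ifi209, Ifi213, Ifi214 and Mndal), drawn up with their low level under the NFAT2 vectors already known. Of these, 7 were among the 16500 genes listed, and Ifi204 and Ifi207 were not analysed here. All 7 passed the filter on low values (1 CPM in at least 3 libraries). Ifi208, Ifi213 and Ifi214 reached it only by way of the Control libraries, and the other 4 would have passed on the NFAT2 libraries alone.

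Members of this family, also called PYHIN or HIN-200 proteins, typically pair an N-terminal pyrin domain, which binds other pyrin domains, with a C-terminal HIN domain, which binds DNA. The best known member, AIM2, senses DNA in the cytosol and assembles the inflammasome that activates caspase-1, and other mouse members have been tied to interferon responses, transcription and growth control. Type I and type II interferons induce many of the genes, and lymphocytes express several of them.

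The cells came from C57BL/6 mice, were grown in RPMI-1640 medium with serum and were transduced with a retrovirus. Libraries were labelled NFAT2_CA, NFAT2_CARIT or Control (CTRL vector), with 3 in each group and 9 in all. NFAT2 is the factor encoded by Nfatc1. CA denotes a constitutively active form, and the RIT substitutions reduce its cooperation with AP-1, the partner factor made of Fos and Jun proteins. Age, sex, culture time, the vector promoter, selection of transduced cells and whether replicates stem from different mice or cultures are not stated in the labels, and p-values therefore describe the spread between libraries, which may be technical. Values are in CPM, with every library brought to the same total, at a depth of 19957712 to 38195036 reads per library as estimated from the spacing of low values. Nfatc1 itself had log2 fold changes against Control of 0.74 ± 0.08 with NFAT2_CA (SE, limma adjusted p = 3.59e-07) and 0.21 ± 0.08 with NFAT2_CARIT (adjusted p = 0.0229). The second of these did not pass without NFAT2_CARIT replicate 2 (limma adjusted p = 0.0548), NFAT2_CARIT replicate 3 (adjusted p = 0.0703) or Control replicate 3 (adjusted p = 0.102). The 5 T cell markers looked up (Cd4, Cd3e, Cd3d, Trbc2 and Lck) were all present. They summed to 4703 to 5100.0 CPM in NFAT2_CA, 4540 to 4606 CPM in NFAT2_CARIT and 4147 to 4453 CPM in Control libraries. In those groups Cd4 averaged 1620, 1660 and 1571 CPM, Cd3e 950, 706 and 420 CPM and Trbc2 760, 658 and 847 CPM.

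The 7 genes lie within 474 kb of mm10 chromosome 1, as the deposited table lists them. Ifi206 spans 173468485 to 173491042, Ifi214 spans 173519717 to 173535958 and Ifi213 spans 173566283 to 173599275, all on the minus strand. Ifi209 (173630917 to 173647929) and Ifi208 (173673675 to 173698396) lie on the plus strand. Mndal (173849126 to 173880882) and Ifi203 (173920407 to 173942673) lie on the minus strand. Aim2, on the plus strand from 173350879 to 173466041, borders the cluster beside Ifi206 and served as the comparison gene of the same family. GENCODE M21 annotates all 7 as protein coding and gives the same start for all 7 genes and, counting inclusively, an end 1 base before the listed stop for 6 of them. For Mndal it also holds 1 transcript that begins at 173942491, within the span of Ifi203, and so reaches beyond the listed span of Mndal.

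The promoters show how close these copies are. RefSeq (GRCm38.p6) promoter sequences, 250 bases before to 50 bases after each start, were searched on both strands for the core of the interferon-stimulated response element, GAAA followed by any 2 bases and a repeat of GAAA. It was found in 6 of the 7 genes. In all 6 the letters at one start were GAAATCGAAA, and Ifi209 holds the substitution G1T at the aligned place (counted from 1 at the 5′ end of GAAATCGAAA). The 7 stretches at this place are shown 5′ to 3′ on the strand of the gene, with 20 bases on either side. Capitals mark the shared element in 6 genes and, in Ifi209, the aligned letters, which lack the core.

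Ifi206: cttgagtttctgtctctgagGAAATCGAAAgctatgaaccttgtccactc
Ifi213: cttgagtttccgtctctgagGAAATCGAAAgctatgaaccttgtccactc
Ifi208: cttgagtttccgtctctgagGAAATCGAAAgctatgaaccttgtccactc
Ifi214: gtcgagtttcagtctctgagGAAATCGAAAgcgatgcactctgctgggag
Ifi209: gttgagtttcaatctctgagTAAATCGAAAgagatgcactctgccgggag
Mndal: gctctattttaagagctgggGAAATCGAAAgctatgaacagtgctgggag
Ifi203: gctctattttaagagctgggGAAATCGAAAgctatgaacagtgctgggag

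The element, or in Ifi209 the aligned letters without the core, lies between -79 and -26 relative to the start in the 7 promoters. The Ifi213 and Ifi208 stretches are the same letter for letter, as are those of Mndal and Ifi203. Over the whole promoter, Ifi214 and Ifi209 are 95.3% identical, Mndal and Ifi203 90.7%, Ifi213 and Ifi208 89.5%, and Ifi206 and Ifi208 87.5%. The promoters are chr1:173491269-173491568 for Ifi206, chr1:173599223-173599522 for Ifi213, chr1:173673415-173673714 for Ifi208 and chr1:173535908-173536207 for Ifi214. Those of Ifi209, Mndal and Ifi203 are chr1:173630609-173630908, chr1:173880138-173880437 and chr1:173942443-173942742. The Ifi206 and Ifi209 promoters lie wholly outside the listed spans of those genes, because RefSeq places their starts further upstream, and Mndal and Ifi203 each have another RefSeq start whose promoter lacks GAAATCGAAA.

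The response element core occurs in 1131 of 32851 RefSeq promoters (3.44%), whereas GAAATCGAAA, a string chosen after the members had been read, occurs in 16 promoters (0.0487%). These belong to 16 genes, 7 of them p200 genes, with Ifi207 as the additional one. Its first 4 letters are also the end of GGAAA, the core recognised by NFAT factors, in each member promoter printed above other than that of Ifi209. GGAAA is common, however, and occurs in 61.3% of all promoters. TGANTCA, the AP-1 motif, occurs in 7.81% of promoters and in those of Ifi209, Mndal and Ifi203, and TTCNNNGAA, the gamma-interferon activation site, occurs in 8.30% and in none of the promoters of the 7 genes. The RefSeq promoter of Aim2 (chr1:173420354-173420653) lies inside the listed span of that gene, away from its listed start. In this Aim2 window neither the response element core nor TTCNNNGAA was found. A match of letters is a description and not a bound site.

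In the plot of levels by library, every member stood lower with both NFAT2 vectors than in Control, to between 1.89% and 13.1% of the Control mean with NFAT2_CA and between 2.07% and 11.5% with NFAT2_CARIT. Summed over the 7 genes, the family held 56.1, 57.2 and 62.7 CPM in NFAT2_CA, 38.8, 43.9 and 56.6 CPM in NFAT2_CARIT, and 544, 585 and 631 CPM in Control replicates 1, 2 and 3. The summed level was thus 10.0-fold lower with NFAT2_CA and 12.6-fold lower with NFAT2_CARIT than in Control. Since these contrasts were in view when the genes were chosen, their values are a description without a test. For each of the 7 genes the libraries of either vector and of Control did not overlap and the gene was lower, as in 38.0% of the 13090 genes tested for NFAT2_CA and 42.0% for NFAT2_CARIT. With 1 CPM added, log2 fold changes of -2 or lower were reached by 96 genes (0.733%) with NFAT2_CA and 123 genes (0.940%) with NFAT2_CARIT. All 7 members were among both. With 5 CPM added, Ifi208 (-1.83 and -1.82) and Ifi213 (-1.41 and -1.48) did not reach -2 with either vector. Ifi208, Ifi213 and Ifi214 were tested only by way of Control and the genes were chosen on these contrasts, so nothing is read from the 7. These contrasts share the Control libraries. In bulk RNA a lower level per cell and fewer expressing cells cannot be told apart.

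**Figure D1:**
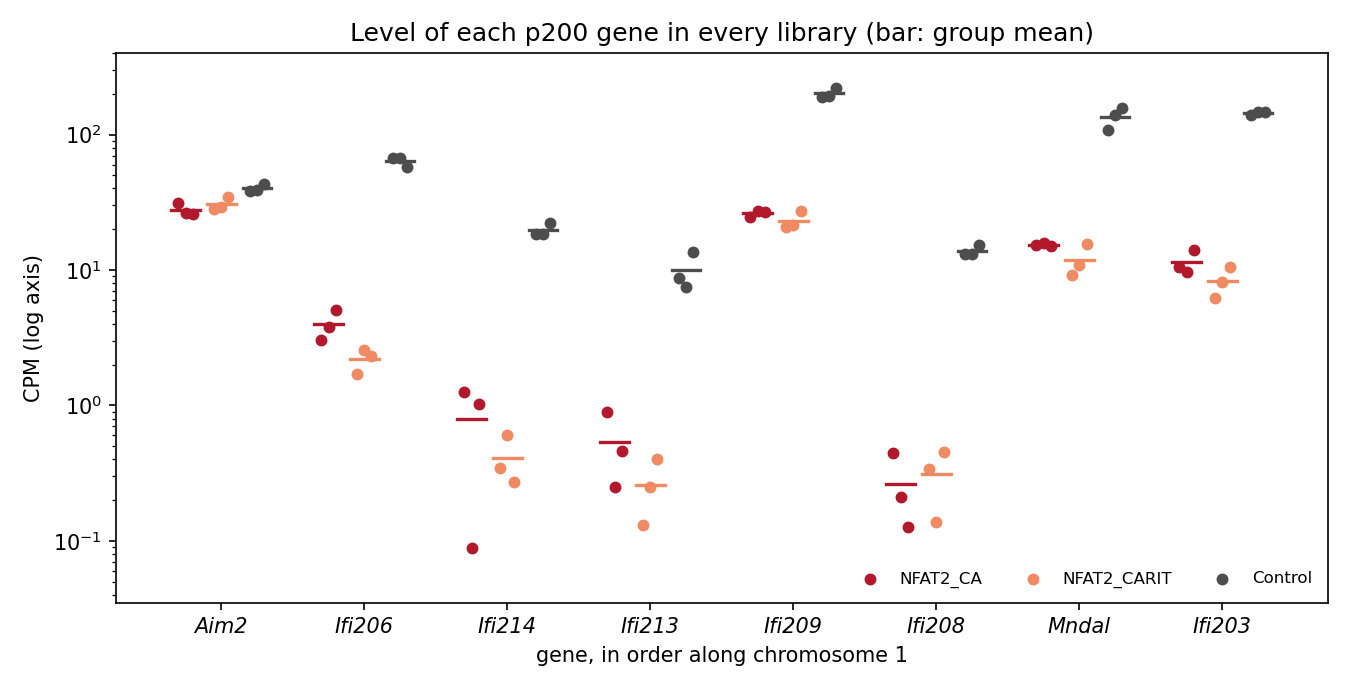
CPM of each of the 7 p200 genes and of Aim2 (log axis) in every NFAT2_CA, NFAT2_CARIT and Control library, ordered along chromosome 1, with points for libraries and bars for group means. Control libraries of the members stand between 7.46 and 219.5 CPM, above every NFAT2 library of the same gene, and Aim2 is the gene whose groups lie closest together.

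Ifi209 was the most abundant member. It stood at 24.6, 27.4 and 27.0 CPM in NFAT2_CA, 20.9, 21.3 and 27.1 CPM in NFAT2_CARIT and 190.1, 193 and 219.5 CPM in Control libraries. Both vector groups lay in 1 band far below Control, and Ifi209 kept the largest part of its Control level, 13.1% with NFAT2_CA and 11.5% with NFAT2_CARIT. Its log2 fold changes against Control, on CPM + 1, were -2.88 ± 0.09 and -3.07 ± 0.09 (SE).

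Mndal encodes a protein related to human MNDA, a nuclear antigen of myeloid cells. It stood at 15.3, 15.9 and 15.0 CPM in NFAT2_CA, 9.14, 10.9 and 15.4 CPM in NFAT2_CARIT and 108, 139 and 156 CPM in Control libraries. The NFAT2_CA libraries lay within a narrow range (15.4 ± 0.439 CPM), while Control varied more (134 ± 24.7 CPM, SD, n = 3 each). The means with the vectors were 11.5% and 8.80% of Control, at log2 fold changes of -3.03 ± 0.18 for NFAT2_CA and -3.41 ± 0.18 for NFAT2_CARIT.

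Ifi203, the neighbour of Mndal, stood at 10.6, 9.59 and 14.0 CPM in NFAT2_CA, 6.26, 8.18 and 10.6 CPM in NFAT2_CARIT and 139, 148 and 147 CPM in Control libraries. It was the member whose Control libraries differed least, with a coefficient of variation of 3.17%. Its log2 fold changes were -3.57 ± 0.16 with NFAT2_CA and -3.99 ± 0.16 with NFAT2_CARIT. Those of Mndal were smaller in size, and this difference between the genes was not tested.

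Ifi206 stood at 3.05, 3.77 and 5.06 CPM in NFAT2_CA, 1.70, 2.55 and 2.30 CPM in NFAT2_CARIT and 67.1, 66.7 and 57.8 CPM in Control libraries. All 3 NFAT2_CARIT libraries lay below all 3 NFAT2_CA libraries, which was so for no other member. With 1 CPM added, its log2 fold changes against Control were -3.73 ± 0.14 with NFAT2_CA and -4.35 ± 0.14 with NFAT2_CARIT, which ranked 6 and 5 from the lowest among the 13090 genes, and the other members ranked 9 to 36 and 8 to 23. The order within the family depends on the added value. With NFAT2_CA, Ifi208 (-5.36) and Ifi214 (-4.90) lay below Ifi206 (-4.01) at 0.1 CPM added, and Ifi203 (-3.20) lay below Ifi206 (-2.95) at 5 CPM.

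The remaining members, Ifi208, Ifi213 and Ifi214, were near the limit of detection with the NFAT2 vectors. Ifi208 rested on an estimated 12, 5 and 3 reads in NFAT2_CA and 13, 5 and 9 reads in NFAT2_CARIT libraries, or 0.446, 0.209 and 0.126 CPM and 0.340, 0.137 and 0.451 CPM. Its Control libraries held 13.0, 13.0 and 15.3 CPM. The mean was 52.9-fold lower with NFAT2_CA and 44.5-fold lower with NFAT2_CARIT. The first ratio became 82.0 without NFAT2_CA replicate 1.

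Ifi213 stood at 0.892, 0.251 and 0.464 CPM in NFAT2_CA, 0.131, 0.249 and 0.401 CPM in NFAT2_CARIT and 8.77, 7.46 and 13.5 CPM in Control libraries. It was the lowest member in Control and the one with the widest relative spread there, a coefficient of variation of 32.3%. Ifi214 stood at 1.25, 0.0887 and 1.02 CPM in NFAT2_CA, 0.345, 0.601 and 0.270 CPM in NFAT2_CARIT and 18.4, 18.3 and 22.1 CPM in Control libraries. NFAT2_CA replicate 2 set the low end for Ifi214, at an estimated 2.12 reads, below the floor of 3 reads. The fitted changes of these low genes depend on the added CPM: with NFAT2_CA the log2 fold change of Ifi208 was -3.56 at 1 CPM added and ranged from -5.36 to -1.83 over the alternatives, and that of Ifi214 was -3.59 and ranged from -4.90 to -2.09.

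**Figure D2:**
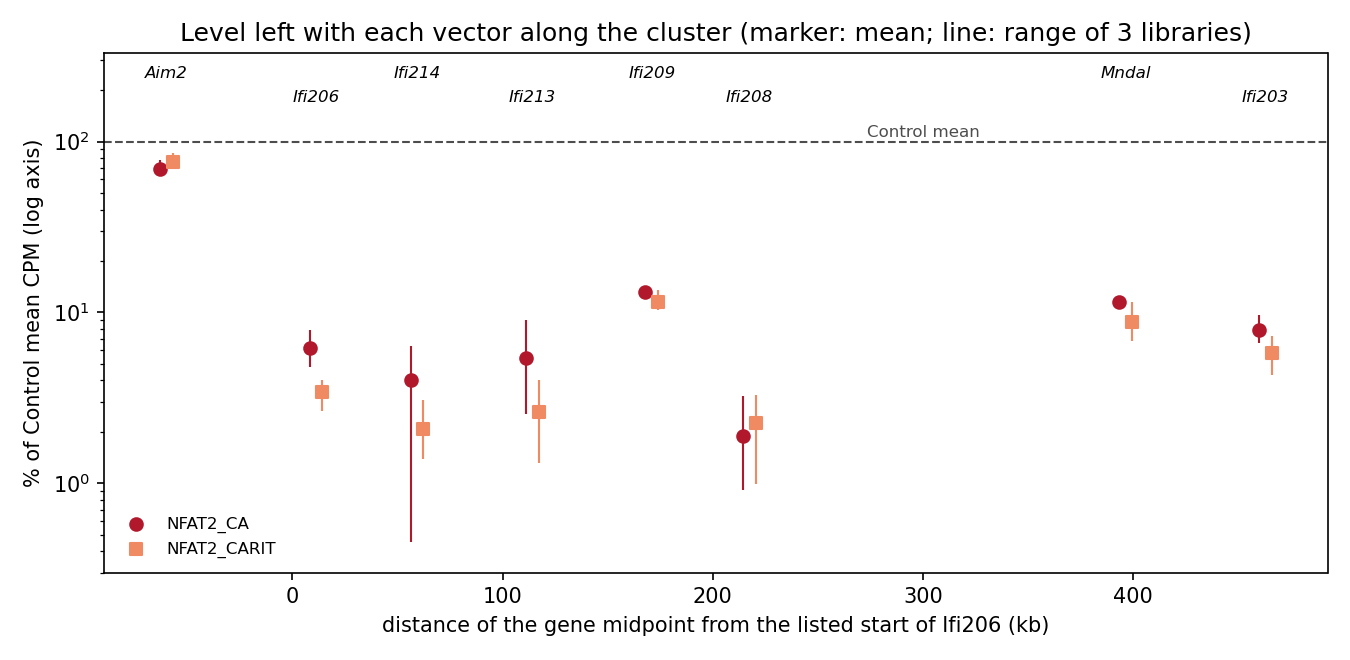
Mean level with each vector as a percentage of the Control mean (log axis) against the distance of each gene's midpoint from the listed start of Ifi206 in kb, with lines spanning the 3 libraries. The 7 members lie between 1.89% and 13.1% and Aim2, at the left edge, at 69.2% with NFAT2_CA and 76.2% with NFAT2_CARIT.

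Aim2, the cytosolic DNA sensor at the border of the cluster, was lower by far less. It stood at 31.4, 26.4 and 25.9 CPM in NFAT2_CA, 28.1, 29.3 and 34.7 CPM in NFAT2_CARIT and 38.5, 39.1 and 43.2 CPM in Control libraries. Both vectors passed limma's test against Control, with log2 fold changes of -0.52 ± 0.09 (SE, adjusted p = 9.99e-05) and -0.39 ± 0.09 (adjusted p = 0.00127), whereas the authors' deposited table gives FDRs of 0.106 and 0.260 for them. Aim2 thus ranked 2481 and 4070 from the lowest among 13090 genes. The exon sequence of Aim2 shares no window of 100 bases with another gene. No other gene of the PYHIN list was tested.

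Levels were compared between genes per kilobase of annotated exon. In NFAT2_CA the order was Aim2 (7.97 ± 0.866 CPM per kb), Ifi209 (7.42 ± 0.435), Mndal (4.29 ± 0.122), Ifi203 (1.70 ± 0.344), Ifi206 (1.30 ± 0.333), Ifi214, Ifi213 and Ifi208. In NFAT2_CARIT it was Aim2 (8.77 ± 1.01 CPM per kb), Ifi209 (6.52 ± 0.983), Mndal (3.29 ± 0.905), Ifi203 (1.24 ± 0.322), Ifi206 (0.716 ± 0.143), Ifi208, Ifi214 and Ifi213. In Control it was Ifi209 (56.7 ± 4.56 CPM per kb), Mndal (37.4 ± 6.87), Ifi203 (21.5 ± 0.683), Ifi206 (20.9 ± 1.71), Aim2 (11.5 ± 0.732), Ifi208 (2.62 ± 0.246), Ifi214 (2.42 ± 0.268) and Ifi213 (1.45 ± 0.468). The first 4 members therefore kept 1 order in every group, while Aim2 ranked 5 in Control and 1 with either vector. Neighbours whose libraries overlapped were Aim2 and Ifi209, Ifi203 and Ifi206, Ifi214 and Ifi213, and Ifi213 and Ifi208 in NFAT2_CA. They were Ifi208 and Ifi214, and Ifi214 and Ifi213, in NFAT2_CARIT, and Ifi203 and Ifi206, and Ifi208 and Ifi214, in Control. The exon length counts all annotated transcripts and may exceed what these cells use.

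The make-up of the family shifted along with its level. Ifi209 supplied 44.9% ± 2.61 of the summed CPM of the 7 genes in NFAT2_CA, 50.1% ± 3.23 in NFAT2_CARIT and 34.2% ± 1.05 in Control libraries (SD, n = 3 each). Ifi206 supplied 6.70% ± 1.32, 4.76% ± 0.925 and 11.0% ± 1.62 in the same order of groups. The share of Mndal overlapped between the groups, at 23.9% to 27.8% in NFAT2_CA, 23.5% to 27.3% in NFAT2_CARIT and 19.8% to 24.8% in Control. These shares restate that Ifi209 kept more, and Ifi206 less, of the Control level than the family as a whole.

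**Figure D3:**
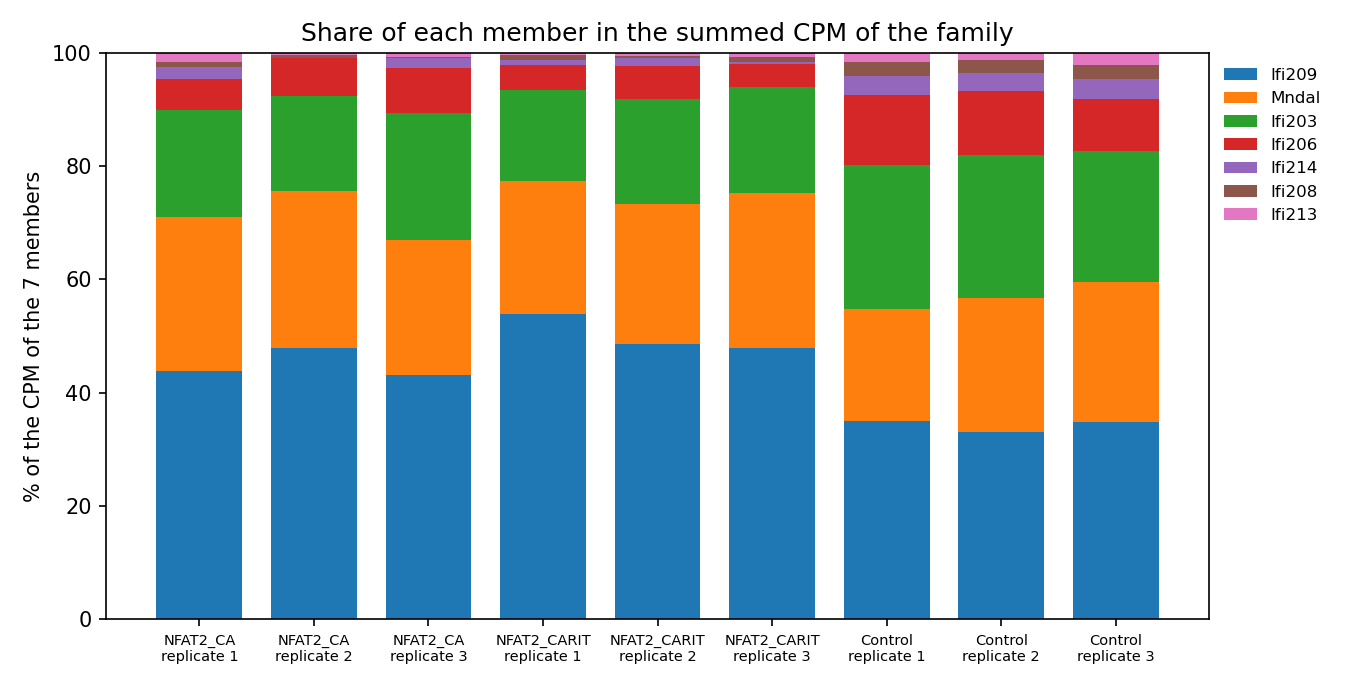
Stacked bars of the percentage of the summed CPM of the 7 genes that each gene supplied, 1 bar per NFAT2_CA, NFAT2_CARIT and Control library. The Ifi209 segment spans 43.1% to 53.8% in the 6 NFAT2 libraries and 33.0% to 34.9% in the 3 Control libraries.

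Some of these copies shared reads, and the deposited values show it. Ifi209 and Ifi214 have 598 windows of 100 bases in common, which is 16.9% of the exon windows of Ifi209 and 7.29% of those of Ifi214. In the 6 NFAT2 libraries the estimated reads of Ifi209 and of Ifi214 were fractions in every library, and their sum was whole within 0.03 read in 6 of 6. In NFAT2_CA replicate 1, for example, 660.32 and 33.69 reads sum to 694, and in NFAT2_CARIT replicate 3, 541.61 and 5.39 reads sum to 547. Reads were therefore divided between both genes, and the separate values of Ifi209 and Ifi214 hold less firmly than their sum. That sum was 25.8, 27.5 and 28.0 CPM in NFAT2_CA, 21.2, 21.9 and 27.4 CPM in NFAT2_CARIT and 208, 212 and 242 CPM in Control libraries, with log2 fold changes of -2.98 and -3.18 against Control. Fitting the pair as 1 feature was chosen after the split had been seen.

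Among the other members, Ifi208 held whole numbers of reads in 6 of 6 NFAT2 libraries, Ifi203, Ifi213 and Mndal in 5 of 6 each and Ifi206 in 3 of 6, while the sum of Ifi203 and Mndal was whole in 6 of 6. In the Control libraries, which hold many more reads of these genes, Ifi203, Ifi206 and Ifi213 were whole in 0 of 3, Ifi208 and Mndal in 1 of 3 and the sum of Ifi209 and Ifi214 in 1 of 3. Aim2, which shares no window, was also whole in 1 of 3 there. By sequence, Ifi206 shares 13.1% of its windows with other genes (Ifi208, Ifi213 and the pseudogene Gm18752), Mndal 6.38%, Ifi208 5.92%, Ifi213 3.30% and Ifi203 2.84%.

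The comparison of NFAT2_CARIT with NFAT2_CA asks what reduced cooperation with AP-1 changes, and it is the contrast in which the genes were tested. Nfatc1 itself had a larger log2 fold change against Control with NFAT2_CA than with NFAT2_CARIT. The contrast cannot tell the substitutions apart from this difference in Nfatc1 level. Ifi206 fell with NFAT2_CARIT to 2.19 ± 0.437 CPM, against 3.96 ± 1.02 CPM with NFAT2_CA (SD, n = 3 each), a mean 44.8% lower. The log2 fold change was -0.63 ± 0.14 (SE, 95% interval -0.93 to -0.33, limma adjusted p = 0.00348). The call held in all 18 settings tried, each a limma fit, with adjusted p between 0.00148 and 0.0184. In the authors' deposited table the same difference is -0.86 on the log2 scale at an FDR of 0.249 and is not called. At an FDR under 0.05 that table calls 468 of 16477 genes (2.84%) in this contrast and 0 members. With limma 1 of 7 members was called, in the lower direction. Of the 13090 genes tested, 28.6% were called in either direction and 16.7% lower, and in 25.0% the libraries did not overlap and lay lower. Since Ifi208, Ifi213 and Ifi214 entered the test only by way of Control and lay near the floor with both vectors, nothing is read from the count of 7.

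None of the other 6 members passed with all libraries in the fit. Ifi203 averaged 8.34 ± 2.16 CPM with NFAT2_CARIT and 11.4 ± 2.31 CPM with NFAT2_CA, a log2 difference of -0.42 (95% interval -0.78 to -0.06, limma adjusted p = 0.0831). Mndal averaged 11.8 ± 3.25 CPM and 15.4 ± 0.439 CPM in the same order (-0.39, interval -0.78 to 0.01, limma adjusted p = 0.138), and Ifi209 23.1 ± 3.49 CPM and 26.3 ± 1.54 CPM (-0.19, interval -0.38 to 0.01, limma adjusted p = 0.139). For the low genes the intervals were wide, at -0.76 to 0.19 for Ifi214, -0.70 to 0.16 for Ifi213 and -0.27 to 0.39 for Ifi208, so that differences of these sizes were not resolved at this depth. NFAT2_CARIT replicate 3 was the highest of its group for 5 of the 7 members. Without it 4 members were called lower: Ifi206, Ifi203 (-0.59, limma adjusted p = 0.00767), Ifi209 (-0.30, adjusted p = 0.0105) and Mndal (-0.58, adjusted p = 0.00610). Without NFAT2_CA replicate 2, which held almost no Ifi214, the count was 2 because Ifi214 passed as well (-0.61, limma adjusted p = 0.0132), on few reads divided with Ifi209, so this is not taken as a difference between the vectors. Summed over the 7 genes, the family averaged 46.4 ± 9.15 CPM with NFAT2_CARIT and 58.7 ± 3.53 CPM with NFAT2_CA, a log2 difference of -0.35 ± 0.11 (SE) that was -0.49 without NFAT2_CARIT replicate 3. The highest NFAT2_CARIT library, at 56.6 CPM, lay above the lowest NFAT2_CA library, at 56.1 CPM. Aim2 did not pass in this contrast either (0.13, interval -0.06 to 0.33, limma adjusted p = 0.296).

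**Figure D4:**
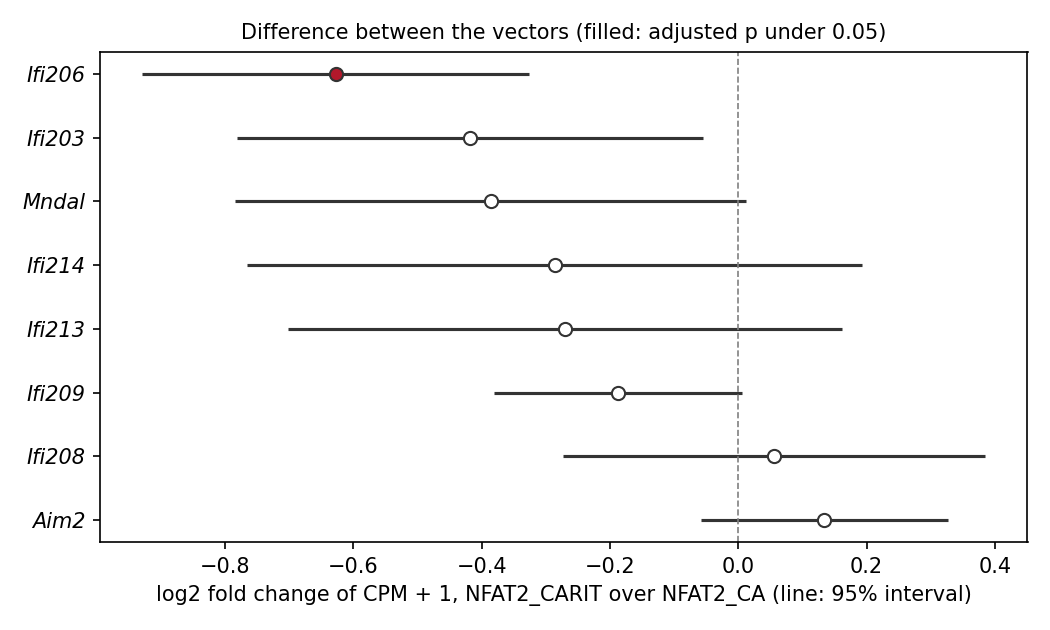
Log2 fold change of CPM + 1, NFAT2_CARIT over NFAT2_CA, with its 95% interval for the 7 members and Aim2, where a filled point marks a limma adjusted p under 0.05. Ifi206 at -0.63 is the filled point, and 6 of the 7 members lie left of 0, with Ifi208 at 0.06.

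Other interferon-stimulated genes looked up were mostly lower as well. With 1 CPM added, those tested other than Ifit1bl1 changed by less than any member. For the low gene Mx1 this depends on the added value. It stood at 0.390 ± 0.147 CPM with NFAT2_CA and 0.631 ± 0.208 CPM with NFAT2_CARIT, against 5.65 ± 0.945 CPM in Control. Of 26 tested, 20 fell and 4 rose with NFAT2_CA (median log2 fold change -1.24, against -0.06 over all genes tested), and 19 fell and 4 rose with NFAT2_CARIT (median -1.32, against -0.09). Any direction was called for 65.5% of all genes with NFAT2_CA (36.5% lower) and 70.3% with NFAT2_CARIT (41.1% lower). Ifit1bl1, a member of the IFIT family, fell to 0.338 ± 0.277 CPM with NFAT2_CA and 0.363 ± 0.128 CPM with NFAT2_CARIT, against 41.7 ± 6.84 CPM in Control (log2 fold changes -5.01 and -4.96, limma adjusted p = 1.98e-13 and 2.01e-13). Slfn5, of the Schlafen family, fell to 13.6 ± 2.75 and 11.3 ± 0.601 CPM, against 71.5 ± 4.21 CPM. Ifi27 and the antiviral GTPase gene Mx1 fell by 2.19 and 2.25 on the log2 scale with NFAT2_CA, and Lgals3bp and Xaf1 fell by 2.38 and 2.24 with NFAT2_CARIT. Rsad2, Ifi27l2a and Phf11b were among the 4 that rose with each vector. They rose by 1.05, 0.95 and 0.77 with NFAT2_CA and by 1.94, 1.14 and 1.22 with NFAT2_CARIT.

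Genes of interferon reception and signalling moved less. Of 17 tested, 10 fell and 3 rose with NFAT2_CA (median -0.43), and 11 fell and 3 rose with NFAT2_CARIT (median -0.60). Irf7, the factor that amplifies type I interferon responses, fell to 9.80 ± 1.05 and 10.5 ± 0.881 CPM, against 26.9 ± 1.54 CPM in Control (log2 fold changes -1.37 and -1.28). Irf1, the interferon-gamma response factor, stood at 165 ± 1.49 and 168 ± 5.02 CPM, against 324 ± 9.99 CPM, a fall of 0.96 and 0.94. Irf9, a subunit of the complex that binds the response element, changed by -0.76 and -0.96. Jak1, a kinase of the interferon receptors, changed by -0.80 with NFAT2_CA (limma adjusted p at most 4.00e-09 for these named changes other than that of Irf9 with NFAT2_CA, at 2.07e-08, and of Irf7 with NFAT2_CARIT, at 5.48e-09). Jak2 and Tyk2, also looked up, were not called with NFAT2_CA. Stat2 and Ifngr2 were called higher with both vectors, Stat2 by 0.36 and 0.39 and Ifngr2 by 0.46 and 0.70. Of the interferon genes looked up (Ifnb1, Ifng and the Ifna and Ifnl genes), Ifng was measured, at 0.749 ± 0.244 CPM in NFAT2_CA, 0.452 ± 0.349 CPM in NFAT2_CARIT and 0.239 ± 0.162 CPM in Control, below the level for testing.

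Among genes of DNA sensing and the inflammasome, 12 of 19 fell and 5 rose with NFAT2_CA, and 12 fell and 6 rose with NFAT2_CARIT (medians -0.43 and -0.47). Pycard, the adaptor that AIM2 recruits through its pyrin domain, fell to 47.3 ± 1.42 CPM with NFAT2_CA, against 96.8 ± 17.0 CPM in Control (limma adjusted p = 4.03e-07). Ikbke, a kinase upstream of interferon induction, changed by -1.14 with NFAT2_CA and -1.23 with NFAT2_CARIT, and Irf3, a factor that drives it, by -0.94 with NFAT2_CARIT. Casp4, which encodes the mouse caspase-11 of the non-canonical inflammasome, rose by 1.23 with NFAT2_CA. Enpp1, which hydrolyses the second messenger cGAMP, rose by 0.98 with NFAT2_CA and 1.61 with NFAT2_CARIT, and the DNA exonuclease gene Trex1 rose by 0.96 with NFAT2_CARIT.

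Genes whose products partner p200 proteins in growth control showed no common direction. Of 13 tested, 5 fell and 4 rose with NFAT2_CA, and 5 fell and 6 rose with NFAT2_CARIT (medians -0.06 and 0.05). Runx2, the osteoblast factor, rose to 241 ± 3.56 and 297 ± 15.0 CPM, against 21.9 ± 3.43 CPM in Control. Ubtf, the ribosomal RNA gene activator, changed by -1.07 and -1.22, and of the inhibitors of bHLH factors Id2 changed by -0.96 and -1.14 and Id3 by 0.90 and 1.18.

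**Figure D5:**
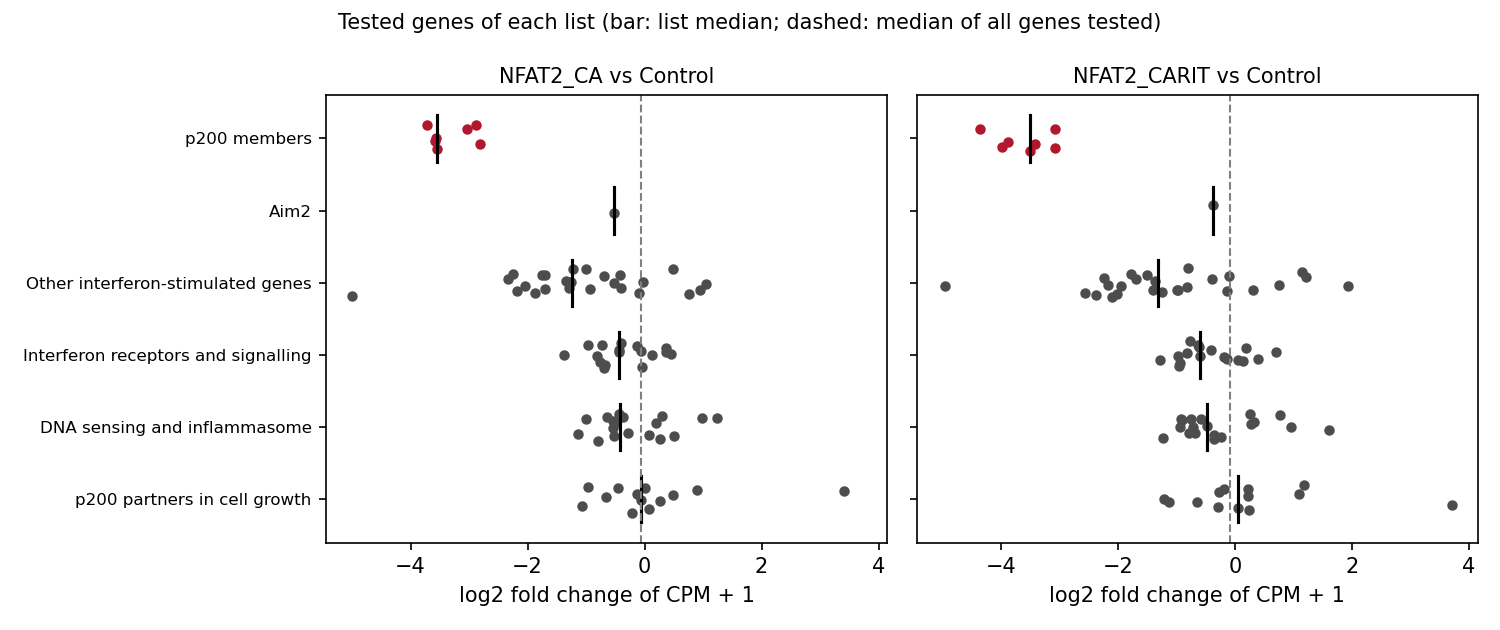
Log2 fold changes of CPM + 1 for the 7 members, Aim2 and the tested genes of 4 lists, with NFAT2_CA over Control on the left and NFAT2_CARIT over Control on the right, a bar for each list median and a dashed line for the median of all genes tested. The members span -3.73 to -2.81 on the left and -4.35 to -3.07 on the right, and the interferon-stimulated genes other than Ifit1bl1 lie above them.

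The remaining genes with GAAATCGAAA in a promoter gave mixed values. Of the 9 outside the family, 5 were tested. Ddx58, which encodes the RNA sensor RIG-I, changed by -0.99 ± 0.08 with NFAT2_CA and -1.37 ± 0.08 with NFAT2_CARIT against Control. Serpinb6a changed by -1.47 and -1.37, Ripk1, a kinase of death receptor signalling, by -0.79 and -0.85 and Parp11 by -0.61 and -0.66. Pnrc1 changed by 0.19 with NFAT2_CA (limma adjusted p = 0.00575) and by 0.12 with NFAT2_CARIT (adjusted p = 0.0626, or 0.00258 with TMM factors). None of the 5 reached the size seen in any p200 member.

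The genes most like the summed family over the 9 libraries were found by the Euclidean distance of log2(CPM + 1), centred on the Control mean, among 8811 tested genes with at least 10 CPM in Control. The closest was Tgtp2 (distance 0.431), followed by Tgtp1 (0.543), both T cell GTPase genes on chromosome 11 that interferons induce and that are near-identical copies. Tgtp2 stood at 21.8, 18.0 and 20.3 CPM in NFAT2_CA, 14.9, 16.7 and 17.0 CPM in NFAT2_CARIT and 206, 189.9 and 207 CPM in Control libraries, which is 9.98% and 8.05% of Control. Next came Dntt, the terminal transferase gene (0.659), Ehd3, an endosome gene (0.914), and Anxa1, the annexin A1 gene (0.935).

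Markers of other cells also moved. Of the B cell markers 3 of 6 were listed, with sums of 206 to 211 CPM in NFAT2_CA, 182 to 204 CPM in NFAT2_CARIT and 411 to 422 CPM in Control. Nearly all of this was Ighm, and Cd79a and Cd79b stood at 0.216 and 0.613 CPM, 0.367 and 0.824 CPM, and 0.568 and 2.37 CPM in those groups. Of the myeloid and dendritic markers 3 of 10 were listed. Their sums were 1.52 to 1.93 CPM in NFAT2_CA, 2.30 to 3.38 CPM in NFAT2_CARIT and 6.83 to 9.39 CPM in Control. Itgam averaged 0.701, 1.34 and 7.98 CPM in those groups and made up most of the Control sum. Cd14 went the other way, at 0.961, 0.563 and 0.0283 CPM, and Itgax stood at 0.0651, 1.08 and 0.0598 CPM. In Control, Cd14 and Itgax were at 0 in at least 1 library. The NK markers summed to 2.51 to 2.91 CPM, 1.70 to 2.25 CPM and 3.82 to 4.37 CPM, and the CD8 markers to 28.4 to 30.8 CPM, 22.6 to 24.0 CPM and 12.5 to 13.7 CPM. Their part in the p200 values was not tested.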

How the data were processed

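Gene-level CPM values for 16500 genes in 9 libraries were deposited by the authors, who scaled each library to 1 fixed total and added 0.0001 to each value (checked on the file and subtracted). The authors' deposited table gives, per the file headers, a p-value, an FDR, a ratio and its log2 for each comparison. Its score columns were deposited by the authors and not used. Partek 10 and the build mm10 are named by the submitters' processing notes. For aligner, quantifier, annotation and strand handling the sources used here give nothing.

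Tests used limma 3.58.1 (R 4.3.3) on log2(CPM + 1) over all 9 libraries, with trend and robust empirical Bayes and Benjamini-Hochberg adjustment over the 13090 genes with at least 1 CPM in 3 or more libraries, called at an adjusted p under 0.05. The script was tested on simulated data. Between 80.4% and 83.8% of values up to 1 CPM were whole reads within 0.1 read, too few to rebuild a count table. A floor of 3 reads corresponds to between 0.0785 and 0.150 CPM, depending on the library, and covers only counting error. Named by rule were all members, Aim2, up to 4 called genes with the largest change per list and contrast, and the 5 genes most like the family. Not everything this rule names is reported here. Cell markers, some interferon-stimulated genes that rose and some interferon signalling genes were named in addition. Members and lists were chosen with earlier results of these data known. Whether replicate numbers pair the libraries is not stated, and the main fit treated the libraries as unpaired. Promoters are RefSeq's, and windows of 100 bases came from GENCODE M21 transcripts. Python 3.11.15, NumPy 2.4.6, pandas 2.3.3 and matplotlib 3.10.9 were used. Alternatives were other pseudocounts, filters and scalings, a replicate block, only the libraries compared, and each library left out.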

Additional observations from a re-analysis of the deposited data

How the results depend on the processing

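Over 17 alternatives, every member tested stayed lower than Control with either vector, a direction that the choice of the genes fixes. The filter of 1 CPM in 3 libraries was no longer reached by 2 members when a Control library was left out, by 3 when the NFAT2 libraries were fitted alone, and 10 CPM by 1. The number of members called between NFAT2_CARIT and NFAT2_CA was 1, and it ranged from 1 to 4 with single libraries left out. With the replicate number as a block it was 3: Ifi206, Ifi203 (-0.42, limma adjusted p = 0.0148) and Mndal (-0.39, adjusted p = 0.0276). Whether same-numbered libraries are paired is not stated. Their deviations correlated at -0.07 to 0.26, over 0.1 in 1 of 9 pairs, which cannot settle it. That pair was replicate 3 of NFAT2_CA and of NFAT2_CARIT. Ifi208, not called, ranged from -0.0221 to 0.1586 with single libraries left out, below 0 without NFAT2_CA replicate 3 and without NFAT2_CARIT replicate 3. Genes of the lists called between the vectors numbered 20 to 34 with single libraries left out, against 31 with all, the lowest being without NFAT2_CARIT replicate 2. Among all genes, TMM factors moved the split with NFAT2_CA to 4337 up and 4103 down, against 3794 and 4780, and with NFAT2_CARIT to 4496 and 4568, against 3822 and 5378. The causes were not tested. Depth limits Ifi208, Ifi213 and Ifi214, which rest on 2.12 to 33.69 reads per NFAT2 library.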
